A study of Mus musculus with 11 samples.

Results

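The genes described here are the mitochondrial carrier family of the mouse, taken as every gene of the deposited count table whose symbol is *Slc25a* followed by a number. This rule, which used no expression value, found 47 of the 55401 genes. RNA-seq was performed on islet cells sorted into 3 fractions by FACS, from male C57BL6/J mice on chow that the labels give as 10 weeks old. All libraries shared 1 genotype that joined RIP-Cre and STOP-tdTomato with the Nnat-EGFP transgene: a rat insulin promoter drives Cre and so switches on tdTomato in beta cells, and the *Nnat* promoter drives eGFP. Cells with tdTomato were divided by eGFP into NNAT-positive beta cells (n=4) and NNAT-negative beta cells (n=4), and the cells without tdTomato formed the non-beta fraction (n=3). Each replicate was 1 mouse, so that libraries of the same number came from the same animal, and mouse 4 had no non-beta library.

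Beta cells burn glucose in their mitochondria to make the ATP that triggers insulin release, and metabolites made there are also sent back to the cytosol as signals. The inner mitochondrial membrane is closed to most of these molecules. SLC25 proteins, which share a fold made of repeated pairs of membrane helices, carry nucleotides, phosphate, di- and tricarboxylates, amino acids, cofactors and iron across it, mostly by exchanging one substrate for another. A few members work elsewhere, such as *Slc25a17* in peroxisomes and *Slc25a46* on the outer mitochondrial membrane.

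The libraries held between 30420352 and 43238376 counts, at which 3 counts, the floor used here, are at most 0.102 CPM, the count scaled to the depth of the library with its TMM factor. *Ins1* and *Ins2* together made up 17.8% to 34.4% of counts in the beta libraries and 0.97% to 2.34% in the non-beta libraries. *Nnat* itself ran against the labels of the beta fractions. Mice 1 to 4 had 50.5, 46.4, 46.1 and 101 CPM of it in the libraries labelled NNAT-positive and 74.8, 80.8, 66.5 and 153 CPM in those labelled NNAT-negative (log2 difference -0.62 ± 0.171 (SE), adjusted p = 0.444 with edgeR). The names of these fractions below are therefore those of the labels, and a direction between them rests on the labels alone. The non-beta fraction was a mixture. Its summed CPM ran from 127900 to 183500 for 8 markers of alpha, delta and PP cells, from 12890 to 49110 for 7 acinar markers, from 3681 to 8310 for 6 markers of stellate cells and fibroblasts and from 2044 to 2356 for 6 endothelial markers. The corresponding sums in the beta libraries were 1956 to 5931, 7.33 to 1742, 0.0609 to 4.95 and 5.17 to 12.8 CPM. The sum of 6 leukocyte markers was 400.1 to 911 CPM in the non-beta and 46.05 to 78.02 CPM in the beta libraries. That of 6 duct markers was 458 to 676.8 and 344.7 to 425.1 CPM. In such bulk samples, fewer cells of a type and less RNA per cell cannot be told apart.

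The 47 genes lay on 19 chromosomes (GRCm38). The most abundant members were *Slc25a4* at chr8:46206797-46211284 (minus strand), *Slc25a5* at chrX:36795651-36798807 (plus strand) and *Slc25a3* at chr10:91116574-91124059 (minus strand). Of the members that differed most between beta and non-beta cells, those higher in beta cells were *Slc25a29* at chr12:108825873-108835883 (minus strand), *Slc25a16* at chr10:62920633-62946498 (plus strand), *Slc25a44* at chr3:88410498-88425139 (minus strand) and *Slc25a36* at chr9:97074961-97111157 (minus strand). Those lower were *Slc25a24* at chr3:109123149-109168457 (plus strand), *Slc25a30* at chr14:75760117-75787037 (minus strand), *Slc25a33* at chr4:149744036-149774277 (minus strand), *Slc25a45* at chr19:5877808-5885878 (plus strand) and *Slc25a48* at chr13:56438355-56474239 (plus strand). All coordinates are those of the whole gene in gencode vM21. Pairs of members were neighbours in 4 places: *Slc25a23* and *Slc25a41* were separated by 2056 bases of chromosome 17, *Slc25a24* and *Slc25a54* by 6461 bases of chromosome 3, and *Slc25a5* and *Slc25a43* by 18448 bases of chromosome X. *Slc25a29* and *Slc25a47* on chromosome 12 were transcribed away from each other, with 162 bases between their outermost bounds in gencode vM21. RefSeq places the start of *Slc25a47* further away, with its upstream window at chr12:108850879-108851128. The neighbours were not expressed alike. *Slc25a41* and *Slc25a54* had 0 counts in all 11 libraries, and in the divergent pair *Slc25a29* reached 11.1 to 20.1 CPM in the beta libraries while *Slc25a47* stayed at 1.18 CPM or below. Exonic bases of 12 members were shared with a gene on the opposite strand, among them 1151 bases of *Slc25a35* with *Rangrf* and 281 bases of *Slc25a33* with *Gm13068*. The counting column of STAR is not given in the sources used here, so values of those 12 may hold reads of the other gene.

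Windows of 250 bases upstream of the start were held by RefSeq for 36 members (46 windows with alternative starts). A GC box (GGGCGG on either strand) stood in 69.6% of these windows and in 32.7% of all 32851 windows of that length, and a CCAAT box (CCAAT on either strand) in 45.7% against 33.9%. The ETS (GABP) core (CCGGAAG on either strand) was in 13.043% against 6.907%. The E-box of USF and MYC (CACGTG) was in 17.391% against 6.021%, and the CRE (TGACGTCA) in 4.348% (2 windows) against 1.546%. The TATA box (TATAAA on either strand) went the other way, with 4.35% against 12.4%. The NRF1 core (CGCATGCG), a motif of many nuclear genes for mitochondrial proteins, was in 0% against 1.55%. So rare a motif can be absent from 46 windows by chance, so no depletion is read from it. These differences were not tested. The median GC content was 57.4% in the member windows and 52.4% in all. Shown here are the windows of the carriers that carried the contrast between beta and non-beta cells, 2 that were higher in non-beta cells (*Slc25a33* and *Slc25a24*) and 2 that were higher in beta cells (*Slc25a29* and *Slc25a16*), from RefSeq on GRCm38.p6. They read 5′ to 3′ along the gene, and capitals mark GC and CCAAT boxes.
Slc25a33, chr4:149774268-149774517, minus strand: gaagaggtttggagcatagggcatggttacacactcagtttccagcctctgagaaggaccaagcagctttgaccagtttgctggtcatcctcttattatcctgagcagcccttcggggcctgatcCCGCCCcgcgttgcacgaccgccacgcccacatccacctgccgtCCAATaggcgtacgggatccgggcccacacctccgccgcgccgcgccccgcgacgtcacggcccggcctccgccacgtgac
Slc25a24, chr3:109122899-109123148, plus strand: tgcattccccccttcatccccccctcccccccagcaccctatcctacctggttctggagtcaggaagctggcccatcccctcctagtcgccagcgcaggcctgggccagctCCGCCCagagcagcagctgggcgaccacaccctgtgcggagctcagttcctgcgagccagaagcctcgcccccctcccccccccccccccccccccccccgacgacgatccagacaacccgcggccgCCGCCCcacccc
Slc25a29, chr12:108835877-108836126, minus strand: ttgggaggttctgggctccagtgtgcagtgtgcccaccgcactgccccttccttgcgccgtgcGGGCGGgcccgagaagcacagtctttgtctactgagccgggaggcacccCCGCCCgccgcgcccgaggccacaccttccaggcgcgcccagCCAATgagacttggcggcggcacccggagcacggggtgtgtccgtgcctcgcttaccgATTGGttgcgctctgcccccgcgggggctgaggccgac
Slc25a16, chr10:62920383-62920632, plus strand: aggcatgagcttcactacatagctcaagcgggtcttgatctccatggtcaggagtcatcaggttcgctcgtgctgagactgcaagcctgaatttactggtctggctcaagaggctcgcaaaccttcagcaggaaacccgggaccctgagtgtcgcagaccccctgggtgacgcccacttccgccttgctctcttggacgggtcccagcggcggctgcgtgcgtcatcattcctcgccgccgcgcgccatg
The *Slc25a33* and *Slc25a29* windows hold both boxes, that of *Slc25a24* the GC box alone and that of *Slc25a16* neither, so the boxes did not separate the carriers by direction. By the bounds of gencode vM21, part of the *Slc25a29* window is the space between it and *Slc25a47*, whose own RefSeq window lies elsewhere.

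To find the dominant carriers, levels were compared per length of exon, in CPM per kilobase. The adenine nucleotide and phosphate carriers, which supply ATP synthase with its substrates and export its product, led in all fractions. On this scale *Slc25a4*, which exchanges ADP for ATP, was at 85.3 in NNAT-positive beta cells, 89.8 in NNAT-negative beta cells and 85.6 in non-beta cells. Its paralog *Slc25a5* was at 76.4, 70.5 and 100.3, and the phosphate carrier *Slc25a3* at 59.1, 60.4 and 62.6. These 3 genes together took 39.6% ± 1.31 (SD, n=4) of the summed per-length level of the family in NNAT-positive beta cells, 39.8% ± 0.618 (SD, n=4) in NNAT-negative beta cells and 47.3% ± 0.569 (SD, n=3) in non-beta cells, with no overlap between the 38.2% to 41.3% of the beta libraries and the 46.9% to 48.0% of the non-beta libraries. The order of the leading pair therefore differed, with *Slc25a4* above *Slc25a5* in each of the 8 beta libraries and below it in each of the 3 non-beta libraries. With the longest transcript in place of the exon union as length, the share of *Slc25a5* in the ADP/ATP carriers reached 50.2% in an NNAT-positive and 50.7% in an NNAT-negative library, so that order did not hold in every beta library.

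Behind them came *Slc25a39*, which takes glutathione into mitochondria, with a mean over the fractions of 48.9 CPM per kilobase, and the citrate carrier *Slc25a1* with 38.01. *Slc25a44*, which imports branched-chain amino acids, stood at 28.9 and the oxoglutarate/malate carrier *Slc25a11* at 28.3, followed by the NAD carrier *Slc25a51* (18.9), the peroxisomal *Slc25a17* (15.6) and *Slc25a46* (11.8). The 10 leading members held 76.4% ± 2.63 (SD, n=4), 76.5% ± 2.62 (SD, n=4) and 78.0% ± 0.201 (SD, n=3) of the family's level in the 3 fractions. *Slc25a1* and *Slc25a44* took larger shares in beta cells. For *Slc25a1* the share was 7.73% and 7.72% in the beta fractions and 5.32% in non-beta cells, and for *Slc25a44* it was 6.46%, 6.20% and 3.09%. Summed over the 47 genes, the family reached 556 ± 51.4 (SD, n=4), 555 ± 49.9 (SD, n=4) and 525 ± 23.7 (SD, n=3) CPM per kilobase, so the fractions overlapped in the total.

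**Figure D1:**
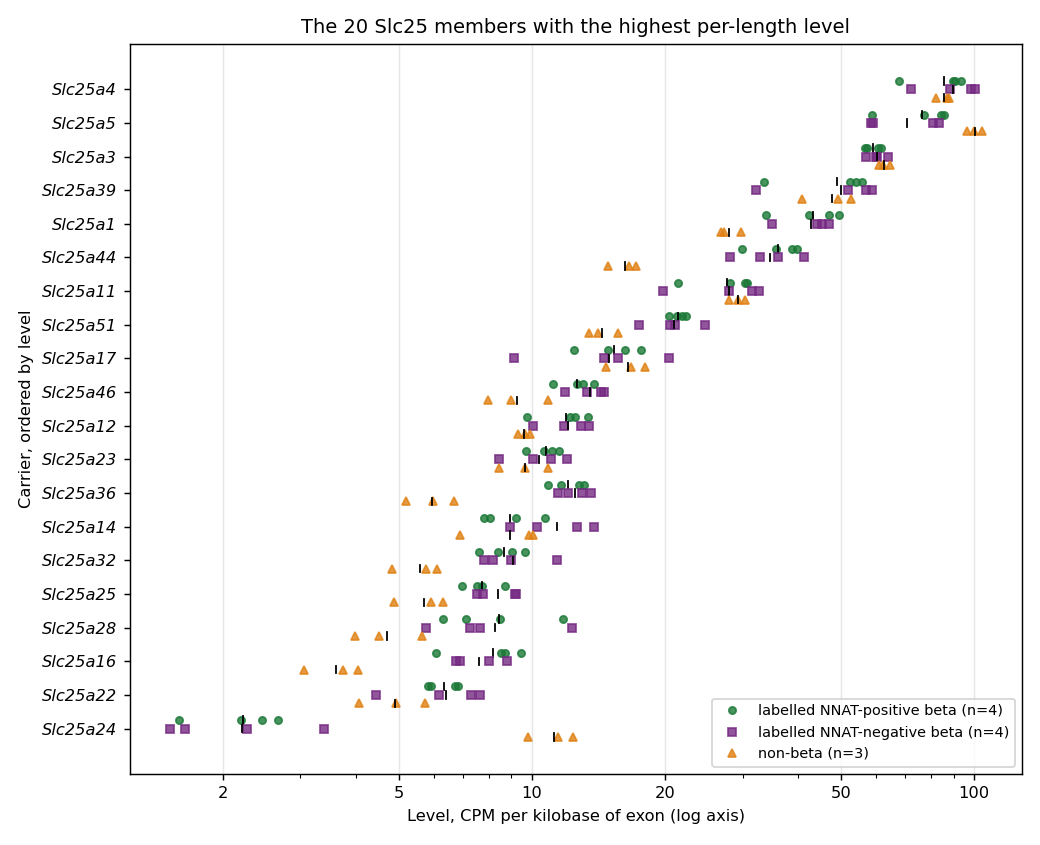
Level of the 20 highest members in CPM per kilobase of exon (log axis), with 1 point for each library and a black tick at the mean of each fraction. *Slc25a4*, *Slc25a5* and *Slc25a3* lead in all 3 fractions, and the non-beta points of *Slc25a24* lie to the right of all 8 beta points while those of *Slc25a44*, *Slc25a36* and *Slc25a16* lie to the left.

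At the other end, 7 members did not pass the filter on low counts and were not tested: *Slc25a2*, *Slc25a18*, *Slc25a21*, *Slc25a34*, *Slc25a41*, *Slc25a43* and *Slc25a54*. The germ-cell ADP/ATP carrier *Slc25a31* passed only through its beta libraries, where it did not exceed 1.05 CPM. *Slc25a33*, *Slc25a45* and *Slc25a48* passed only through the non-beta libraries, so their being lower in beta cells follows from how they entered the test and is given as a description.

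Beta cells were next compared with non-beta cells, the mean of both beta fractions being set against the non-beta fraction in an edgeR fit with the mouse as a block. Of the 40 members tested, 12 were higher in beta cells and 7 lower at an adjusted p below 0.01. Among all 17424 genes tested, 17.2% were higher and 23.9% lower at that threshold. With a minimum of 2-fold, 4 members were called higher (*Slc25a29*, *Slc25a16*, *Slc25a44* and *Slc25a36*) and 5 lower (*Slc25a48*, *Slc25a33*, *Slc25a45*, *Slc25a24* and *Slc25a30*), where 6.22% of all genes were called higher and 18.9% lower. As *Slc25a48*, *Slc25a33* and *Slc25a45* had entered through the non-beta libraries alone, nothing is read from the count of lower calls. The median log2 fold change was 0.22 over the members tested and -0.098 over all genes. Since mouse 4 had no non-beta library, the per-mouse values of this comparison come from mice 1 to 3.

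**Figure D2:**
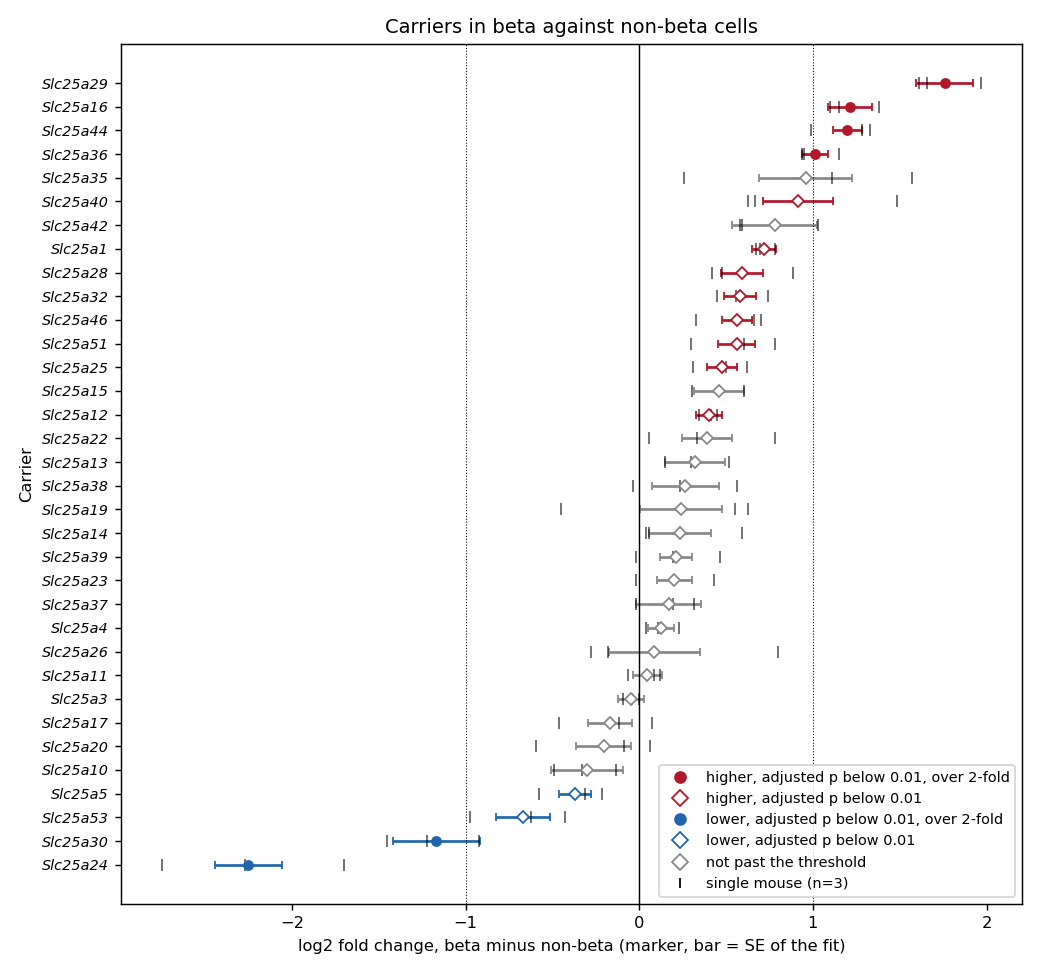
Log2 fold change of beta against non-beta cells for 34 members (markers, bars show the SE of the fit) with the value of each of 3 mice as black ticks; dotted lines mark 2-fold. *Slc25a29* has the highest value at 1.76 and *Slc25a24* the lowest at -2.25. The other 6 members tested are not drawn, being at or near 0 in some fractions or, for *Slc25a27*, set apart in mouse 4.

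Amino acid carriers included the strongest beta-enriched member. *Slc25a29*, which carries basic amino acids such as arginine and lysine, was at 17.5, 19.2, 20.1 and 14.3 CPM in NNAT-positive libraries of mice 1 to 4, at 15.9, 13.5, 12.2 and 11.1 CPM in NNAT-negative libraries and at 4.22, 5.25 and 4.92 CPM in non-beta libraries of mice 1 to 3. Its lowest beta library was above 2 times its highest non-beta library. The log2 fold change was 1.76 ± 0.165 (SE), an adjusted p of 9.66e-06 with edgeR. *Slc25a44* was at 138, 128, 142 and 107 CPM, then 129, 117, 147 and 100.4 CPM, against 53.1, 61.7 and 59.4 CPM in non-beta cells. It too showed no overlap, and its log2 fold change of 1.20 ± 0.0859 (SE) was seen in 3 of 3 mice (adjusted p = 1.38e-06). The 2 other tested members of this group did not pass the test. They were the ornithine carrier *Slc25a15* (0.46 ± 0.144 (SE), adjusted p = 0.0217) and the glycine carrier *Slc25a38* (0.26 ± 0.193 (SE), adjusted p = 0.284).

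Cofactor and pyrimidine nucleotide carriers were the largest group, with 10 members tested, of which 4 were higher and 2 lower in beta cells, against the 17.2% and 23.9% of all genes. One of the lower ones, *Slc25a33*, had entered the test through its non-beta libraries. *Slc25a16*, linked to the transport of coenzyme A, was at 45.4, 41.7, 40.9 and 29.2 CPM in NNAT-positive libraries, at 32.3, 38.4, 42.2 and 33.0 CPM in NNAT-negative libraries and at 14.7, 17.99 and 19.4 CPM in non-beta libraries. All 8 beta libraries were above all 3 non-beta libraries, with a log2 fold change of 1.22 ± 0.127 (SE) and an adjusted p of 2.11e-05. The NAD carrier *Slc25a51* (0.56 ± 0.106 (SE)) and the folate and flavin carrier *Slc25a32* (0.58 ± 0.092 (SE)) were also higher, while *Slc25a53*, a relative of the NAD carrier, was lower at -0.67 ± 0.157 (SE) on the log2 scale. The call of *Slc25a51* was lost in 3 settings (adjusted p from 0.0142 to 0.0663), that of *Slc25a53* in 2 (0.0287 to 0.0489) and that of *Slc25a32* in 1 (0.0119). The coenzyme A carrier *Slc25a42* had 0.78 ± 0.247 (SE) but an adjusted p of 0.0219, with beta libraries from 7.19 to 27.4 CPM that overlapped the 8.24 to 13.9 CPM of non-beta cells.

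The pyrimidine nucleotide carriers *Slc25a33* and *Slc25a36* showed the clearest division of a paralog pair. *Slc25a36* was at 112, 122, 104 and 126 CPM in NNAT-positive libraries, at 109.8, 124, 116 and 130.5 CPM in NNAT-negative libraries and at 49.9, 63.9 and 57.3 CPM in non-beta libraries. Its log2 fold change of 1.01 ± 0.0752 (SE) passed the test (adjusted p = 1.81e-06), with the 2-fold limit inside 1 SE, and it stayed over 2-fold in 5 of 10 alternative settings. *Slc25a33* went the opposite way and was nearly restricted to non-beta cells, with 519, 382 and 469 counts there. The NNAT-positive libraries held 24, 4, 15 and 9 counts and the NNAT-negative libraries 0 counts in 4 of 4. Non-beta cells were thus 33.1-fold above the NNAT-positive mean of 0.342 CPM, and at least 110-fold higher than NNAT-negative cells when 3 counts are taken as the floor of a library. As a share of the pair's per-length level, *Slc25a33* made up 50.2% ± 4.89 (SD, n=3) in non-beta cells, 1.52% ± 1.16 (SD, n=4) in NNAT-positive beta cells and 0% in NNAT-negative beta cells.

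Among adenine nucleotide carriers, *Slc25a5* was at 141, 127, 139 and 96.8 CPM in NNAT-positive libraries, at 133, 96.4, 138 and 97.5 CPM in NNAT-negative libraries and at 159, 165 and 172 CPM in non-beta libraries. The non-beta libraries were above all beta libraries, although by less than 2-fold (-0.37 ± 0.0924 (SE) on the log2 scale, adjusted p = 0.00682). The call was lost without the mouse block and without mouse 1, 2 or 3 (adjusted p from 0.0111 to 0.0376 with edgeR). *Slc25a4* showed 0.13 ± 0.0741 (SE) with an adjusted p of 0.185 and turned negative when scaled to mitochondrial genes, and its ranges of 160 to 236 CPM in beta and 193 to 207 CPM in non-beta cells overlapped. The share of *Slc25a5* in the ADP/ATP carriers was accordingly 47.1% ± 0.981 (SD, n=4) and 43.9% ± 5.00 (SD, n=4) in the beta fractions and 53.9% ± 0.664 (SD, n=3) in non-beta cells. The phosphate carrier *Slc25a3*, at 315 to 355 CPM in beta and 338 to 359 CPM in non-beta libraries, had a log2 fold change of -0.045 ± 0.0743 (SE) and did not pass the test (adjusted p = 0.646).

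The calcium-regulated ATP-Mg carriers, which adjust the adenine nucleotide content of the matrix, differed in composition. *Slc25a24* was at 7.56, 9.14, 8.40 and 5.46 CPM in NNAT-positive libraries, at 5.22, 11.7, 7.80 and 5.63 CPM in NNAT-negative libraries and at 42.5, 33.7 and 39.2 CPM in non-beta libraries. This was the largest difference among members well above the floor in all libraries, a log2 fold change of -2.25 ± 0.193 (SE) with an adjusted p of 5.03e-06. *Slc25a25* was higher in beta cells (0.48 ± 0.0848 (SE), adjusted p = 0.000845, lost in 2 of 10 settings with an adjusted p of up to 0.0323), and *Slc25a23* did not pass the test (0.20 ± 0.102 (SE), adjusted p = 0.125). Accordingly *Slc25a24* fell from 42.3% ± 5.93 (SD, n=3) of the per-length level of these 3 paralogs in non-beta cells to 10.7% ± 1.61 (SD, n=4) and 10.4% ± 3.43 (SD, n=4) in the beta fractions. With the longest transcript in place of the exon union as length, these shares were 29.6%, 6.32% and 6.10%. *Slc25a23* had 51.9% and 49.4% and *Slc25a25* 37.4% and 40.2% in the beta fractions. Their order depended on the length used, since with the longest transcript *Slc25a25* had 48.3% and *Slc25a23* 45.6% in NNAT-negative cells.

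**Figure D3:**
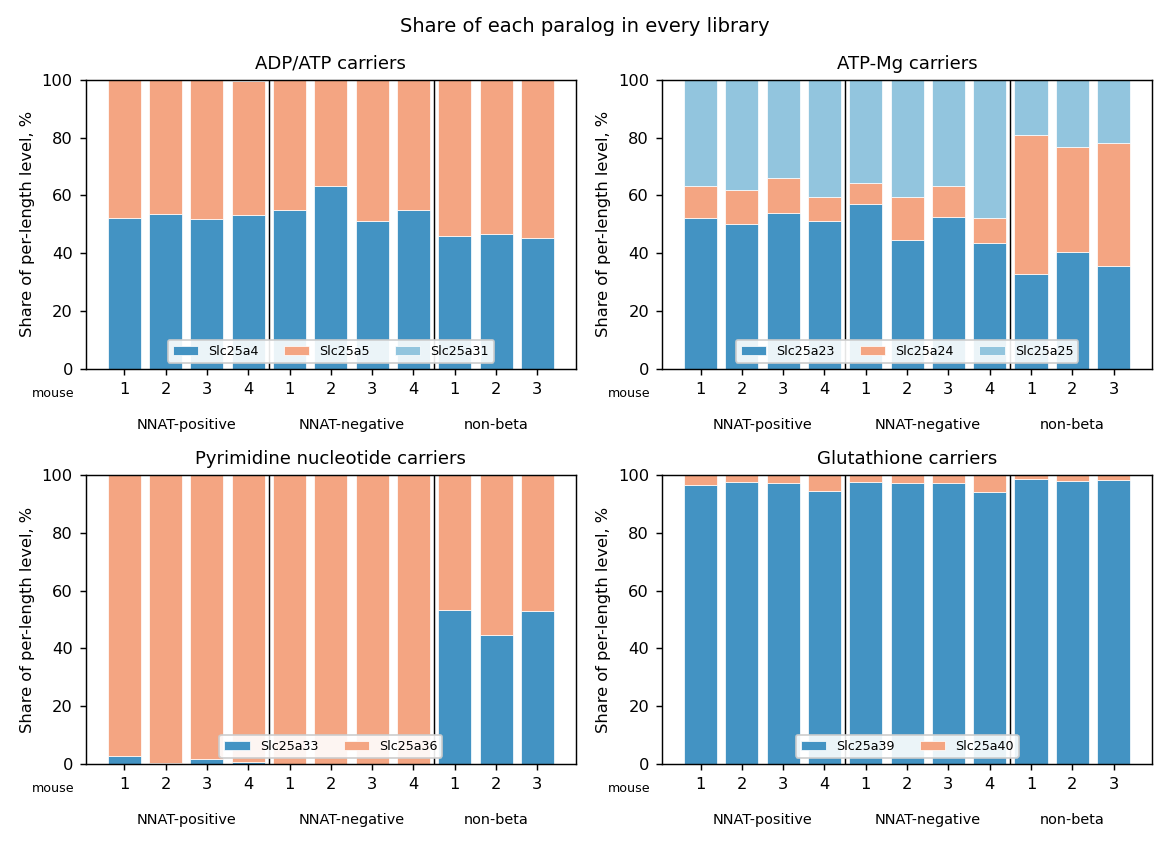
Share of each paralog in the per-length level of its group (%, stacked bars from 0 to 100, 1 bar for each library, grouped by fraction and numbered by mouse). *Slc25a33* takes 44.6% to 53.3% of the pyrimidine nucleotide pair in non-beta libraries and at most 2.98% in beta libraries, and *Slc25a24* takes 36.3% to 48.2% of the ATP-Mg carriers against 7.22% to 15.0%; *Slc25a31* is too low to be seen.

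Of 6 carriers of carboxylates and of aspartate and glutamate that were tested, *Slc25a1* and *Slc25a12* were higher in beta cells. The citrate carrier *Slc25a1*, whose exported citrate feeds acetyl-CoA synthesis in the cytosol, was at 91.8, 102, 107 and 73.2 CPM in NNAT-positive libraries, at 95.7, 98.2, 102 and 75.7 CPM in NNAT-negative libraries and at 58.9, 58.0 and 64.4 CPM in non-beta libraries. It was higher in 3 of 3 mice without overlap, with a log2 fold change of 0.72 ± 0.0685 (SE) and an adjusted p of 1.08e-05. *Slc25a12*, an aspartate/glutamate carrier of the malate-aspartate shuttle, was higher by 0.40 ± 0.0752 (SE), although the 71.5 CPM of its lowest beta library lay below the 72.8 CPM of its highest non-beta library. This call was lost in 3 of 10 settings, and the log2 fold change was 0.21 when scaled to mitochondrial genes (adjusted p = 0.0786 with edgeR). *Slc25a12* made up 84.0%, 84.3% and 82.5% of the per-length level shared with *Slc25a13* in the 3 fractions. The oxoglutarate/malate carrier *Slc25a11* (0.047 ± 0.0831 (SE), adjusted p = 0.67), the dicarboxylate carrier *Slc25a10* (-0.30 ± 0.207 (SE), adjusted p = 0.255) and the glutamate carrier *Slc25a22* (0.39 ± 0.144 (SE), adjusted p = 0.0439) did not pass the test.

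For iron and glutathione, 1 paralog of each pair passed the test as higher in beta cells. Whether the paralogs of a pair differed from each other was not tested. The mitoferrin *Slc25a28*, which imports iron, had a log2 fold change of 0.59 ± 0.12 (SE) with an adjusted p of 0.00193, and *Slc25a37*, the mitoferrin known from red cell precursors, 0.17 ± 0.187 (SE) with an adjusted p of 0.484. The call of *Slc25a28* was lost in 4 of 10 alternative settings (adjusted p from 0.012 to 0.0316). Its share of the mitoferrins' per-length level was 84.0%, 85.2% and 81.3% in the 3 fractions, and beta and non-beta libraries overlapped. *Slc25a40* rose by 0.92 ± 0.202 (SE) (adjusted p = 0.00322) from a low level, a call lost in 3 of 10 settings (adjusted p from 0.0124 to 0.0164), whereas the abundant *Slc25a39* had 0.21 ± 0.0915 (SE) with an adjusted p of 0.0795. *Slc25a40* nevertheless stayed a small part of the glutathione carriers, with 3.64% ± 1.27 (SD, n=4), 3.51% ± 1.66 (SD, n=4) and 1.76% ± 0.258 (SD, n=3) of their per-length level. The outer membrane member *Slc25a46* was higher by 0.56 ± 0.0861 (SE), a call lost when scaled to mitochondrial genes (adjusted p = 0.0241), and the carnitine carrier *Slc25a20*, which brings fatty acids to beta-oxidation, did not pass the test (-0.21 ± 0.16 (SE), adjusted p = 0.317).

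The remaining carriers called lower in beta cells were of low abundance. *Slc25a30*, related to the uncoupling proteins, was at 5.37, 8.42, 7.56 and 6.03 CPM in NNAT-positive libraries, at 10.5, 5.21, 8.43 and 4.10 CPM in NNAT-negative libraries and at 17.6, 18.2 and 15.2 CPM in non-beta libraries. The beta and non-beta libraries did not overlap (log2 fold change -1.17 ± 0.251 (SE), adjusted p = 0.00274), but the call was lost without mouse 2 or without mouse 3 (adjusted p from 0.0164 to 0.0186 with edgeR). *Slc25a45* had 274, 173 and 151 counts in non-beta libraries, 7 counts in 1 NNAT-positive library, 5 counts in 1 NNAT-negative library and 0 counts in the 6 other beta libraries. *Slc25a48* had 66, 50 and 77 counts in non-beta libraries and 0 counts in all 8 beta libraries, so that it was at least 15.7-fold higher in non-beta cells with 3 counts as the floor of a library. The call of *Slc25a45* was lost with DESeq2 (adjusted p = 0.014) and that of *Slc25a48* without mouse 1, 2 or 3 (adjusted p from 0.0123 to 0.028 with edgeR). Both were detected almost entirely in the mixed non-beta fraction, whose cell types these libraries do not separate.

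Compared with non-beta cells one at a time, the beta fractions gave similar values for these carriers, but both comparisons share the non-beta libraries. For NNAT-positive cells 3 members were called higher and 4 lower, against 6.13% and 15.5% of all genes. For NNAT-negative cells 4 were called higher and 4 lower, against 6.18% and 17.1%. The lower calls of both fractions included *Slc25a33* and *Slc25a45*, which had entered through the non-beta libraries alone. Nothing is therefore read from the counts of lower calls. The log2 fold changes in NNAT-positive and NNAT-negative cells were 1.97 and 1.54 for *Slc25a29*, 1.26 and 1.17 for *Slc25a16*, 1.23 and 1.17 for *Slc25a44*, and -2.24 and -2.27 for *Slc25a24*. *Slc25a36* was at 0.99 and 1.04, on either side of the 2-fold limit.

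Whether the carriers differed between the beta fractions was tested within the same fit. None of the 40 members passed an adjusted p below 0.01 in edgeR, where 0.0517% of all genes did. At an unadjusted p below 0.05 there were 2 members, both higher in the libraries labelled NNAT-positive, where 839 of all 17424 genes were higher and 130 lower. DESeq2 gave 1 member at an adjusted p below 0.01, *Slc25a33* (0.000162), among 137 genes. The 27 members of at least 10 CPM in beta cells had log2 differences from -0.35 to 0.43, with SEs from 0.0663 to 0.24. The values of *Slc25a29* given above were higher in the NNAT-positive library of 4 of 4 mice, although the fractions overlapped (0.43 ± 0.15 (SE), adjusted p = 0.732 with edgeR). *Slc25a33*, with its 4 to 24 counts against 0, was also higher in 4 of 4 mice without overlap (adjusted p = 0.18 with edgeR). Its NNAT-positive mean was 3.34 times the floor of 3 counts in the shallowest NNAT-negative library, 0.1024 CPM. The NNAT-positive library of mouse 2, with 4 counts or 0.096 CPM, lay below that floor. In the other direction, *Slc25a25* (-0.12 ± 0.0829 (SE), adjusted p = 0.911) and *Slc25a46* (-0.094 ± 0.0839 (SE), adjusted p = 0.931) were lower in the NNAT-positive library of 4 of 4 mice, and *Slc25a42* (0.43 ± 0.24 (SE), adjusted p = 0.892) was higher in 4 of 4. In mouse 1, however, the log2 differences of *Slc25a25* (-0.000475) and *Slc25a42* (0.00897) were next to 0. That of *Slc25a42* in mouse 2 was 1.58. The largest negative value, -0.35 ± 0.179 (SE), was that of *Slc25a14*, another relative of the uncoupling proteins (adjusted p = 0.886), and its sign was negative in mice 1 and 2 and positive in mice 3 and 4.

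**Figure D4:**
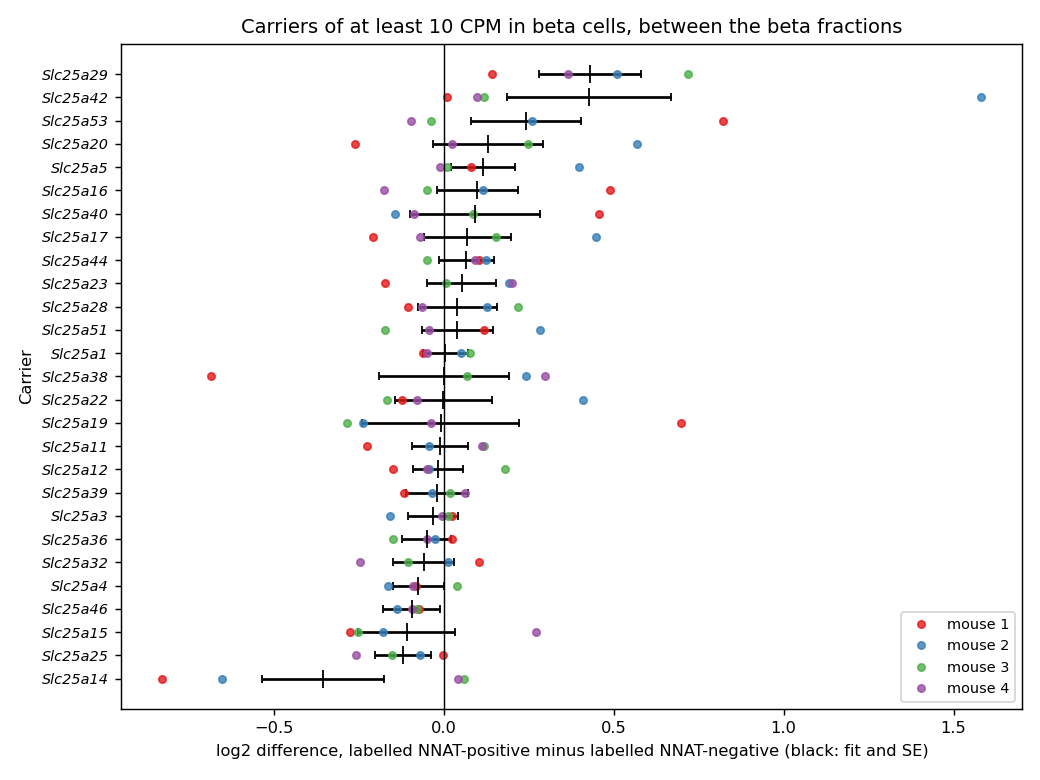
Log2 difference between libraries labelled NNAT-positive and NNAT-negative for 27 members of at least 10 CPM in beta cells, with coloured points for each of 4 mice and black bars for the fit and its SE. Most points lie on both sides of 0, those of *Slc25a29* and *Slc25a42* are above 0 and those of *Slc25a25* and *Slc25a46* below 0 in 4 of 4 mice, and *Slc25a42* is spread by mouse 2. The mouse 1 points of *Slc25a25* and *Slc25a42* lie next to 0.

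Markers of other islet cells moved between the same libraries. The sum of 8 markers of alpha, delta and PP cells was higher in the NNAT-positive library of 4 of 4 mice (4181 to 5931 against 1956 to 2842 CPM), 7 of the 8 single markers were higher in 4 of 4 mice, and 2 of the 8 passed the test. None of the 8 was at 0 in any beta library. The NNAT-positive mean of *Slc25a33* was 3.02% of its non-beta mean. For comparison, those of *Gcg* and *Hhex* were 1.97% and 18.5% of theirs in the NNAT-positive libraries and 0.957% and 5.69% in the NNAT-negative libraries. Endothelial markers summed to 6.53 to 12.8 CPM against 5.17 to 11.8 CPM, and acinar markers, which reached 1742 CPM in the NNAT-positive library of mouse 2, to 7.33 to 1742 CPM against 40.8 to 393 CPM. *Esam* made up most of the endothelial sums, with means of 6.36 against 7.19 CPM. The other endothelial markers were low but had higher NNAT-positive means. These were 0.706 against 0.0152 CPM for *Flt1*, 0.680 against 0.132 CPM for *Plvap* and 0.466 against 0.159 CPM for *Kdr*. For *Pecam1* they were 0.364 against 0.0779 CPM and for *Cdh5* 0.0632 against 0 CPM. Leukocyte markers summed to 46.05 to 78.02 against 48.14 to 76.03 CPM, mostly *C1qa* (means 55.76 against 60.21 CPM). The other leukocyte markers had higher NNAT-positive means, such as *Lyz2* with 0.999 against 0.123 CPM. Markers of stellate cells and fibroblasts summed to 1.485 to 4.945 against 0.0609 to 3.412 CPM. Their NNAT-positive means were higher except for *Rgs5* (0.4448 against 0.9576 CPM). Of the endothelial, leukocyte and stellate markers, 0 were higher in 4 of 4 mice. The part of these cell types in the *Slc25a33* counts was not tested.

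The mice differed more than the beta fractions for several carriers. In mouse 4, both beta libraries lay above the 6 other beta libraries for 8 of the 40 members tested and below them for 10, where 18.7% and 15.8% of all genes tested did so. *Slc25a27*, an uncoupling protein relative best known from neurons and chosen here after its values were seen, was at 11.7 and 10.7 CPM in mouse 4 and between 0.244 and 2.11 CPM in the other beta libraries. Both mitoferrins were also high in that mouse, *Slc25a28* at 44.2 and 46.1 CPM against 21.7 to 31.7 CPM and *Slc25a37* at 17.0 and 14.7 CPM against 6.06 to 9.90 CPM. *Slc25a39* was low, at 92.5 and 88.5 CPM against 143 to 162 CPM. Of the leading members, *Slc25a4*, *Slc25a3*, *Slc25a1* and *Slc25a44* were below the other beta libraries as well. Over the members of at least 10 CPM, the coefficient of variation between libraries ran from 3.88% to 28.7% in NNAT-positive cells, from 4.72% to 42.7% in NNAT-negative cells and from 2.93% to 26.4% in non-beta cells.

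Other genes of mitochondrial transport were read in the same fit from lists of 57 genes, of which 54 were tested, 19 were higher and 11 lower in beta cells and 0 differed between the beta fractions at an adjusted p below 0.01 in edgeR. The shares of all genes tested were 17.2% higher and 23.9% lower, and the counts of single lists below are to be read against them. The median log2 fold change over these genes was 0.11. SLC25 proteins with other symbols were among the most abundant. *Mtch1*, an outer membrane protein of the family, was at 354 ± 54.1 (SD, n=4), 382 ± 70.1 (SD, n=4) and 228 ± 11.7 (SD, n=3) CPM, a log2 fold change of 0.80 ± 0.0878 (SE) with an adjusted p of 2.94e-05. *Ucp2* went the other way, with 239, 241, 269 and 205 CPM in NNAT-positive libraries, 212, 162, 236 and 159 CPM in NNAT-negative libraries and 368, 401 and 405 CPM in non-beta libraries. It was lower in beta cells without overlap (-0.80 ± 0.0954 (SE), adjusted p = 5.15e-05), and *Ucp1* and *Ucp3* did not pass the filter.

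Enzymes that make or use the carriers' substrates split in direction. Of 17 shuttle enzymes 7 were higher and 3 lower. *Pcx*, which makes oxaloacetate from pyruvate, was at 163 to 277 CPM in the beta libraries and 27.4 to 36.3 CPM in the non-beta libraries (log2 fold change 3.07 ± 0.115 (SE), adjusted p = 2.15e-08). *Acly*, which cleaves exported citrate, was higher by 1.65 ± 0.111 (SE) and the glycerol-phosphate shuttle enzyme *Gpd2* by 1.04 ± 0.103 (SE). The glutamate dehydrogenase *Glud1* was lower, at -1.32 ± 0.0663 (SE). Of 4 genes tested from the list for the carnitine shuttle 3 were lower and 1 was higher. The lower ones included *Cpt1a* at -0.59 ± 0.1275 (SE) and its relative *Cpt1c* at -1.44 ± 0.173 (SE).

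The remaining lists hold pores and import factors. Of 7 genes for the pyruvate carrier and sideroflexins 3 were higher and 1 lower, with *Sfxn2* at 1.32 ± 0.0994 (SE). Of 8 genes listed for the calcium uniporter and related ion transport, 2 were higher (*Micu3* and *Letm1*) and 1 lower. The latter was *Mcub*, an inhibitory subunit of the uniporter, at 1.20 to 3.62 CPM in beta and 10.6 to 12.2 CPM in non-beta libraries (-2.10 ± 0.284 (SE), adjusted p = 0.000132). Of 12 genes of the carrier import machinery 3 were higher and 1 lower, and of the 3 outer membrane channels *Vdac1* was higher (0.62 ± 0.0702 (SE)) and *Vdac2* lower (-0.31 ± 0.0741 (SE)).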

How the data were processed

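The authors took 20 ng of RNA per sorted fraction through poly(A) selection and sequenced paired 75-base reads. They aligned these to mm10 with STAR 2.7.1a, counted reads per gene with STAR on gencode vM25 and deposited raw counts per gene. STAR gene counts leave out reads that map to several places, which can lower genes with near-identical copies. Its size for *Slc25a5*, which has an annotated pseudogene, and so its effect on the order of *Slc25a4* and *Slc25a5*, was not measured. The deposited count table holds no authors' comparisons. Counts were tested in R 4.3.3 with the quasi-likelihood test of edgeR 4.0.16 (TMM normalisation, filterByExpr by fraction, 17424 genes kept, all 11 libraries, mouse as block) and the Benjamini-Hochberg adjustment over all genes tested. Genes changed at an adjusted p below 0.01 and were called with a change over 2-fold as well. Log2 CPM of single mice used a prior count of 2. The per-length level divided CPM by the union of a gene's exons in gencode vM21 (GRCm38). DESeq2 1.42.0 was an alternative. SEs cover counting error and the spread that is left once the mouse block has taken up the level of each mouse. The numbers pair the libraries, since each number is 1 mouse. Deviations from the fraction means correlated with r = 0.314 on average for the beta fractions of a mouse (0.182 to 0.658, 4 pairs) and -0.103 for those of different mice. With the non-beta libraries included, the mean was 0.175 for pairs of the same mouse (0.0321 to 0.658, 10 pairs). It was -0.0579 for pairs of different mice (-0.322 to 0.0931, 30 pairs), so these ranges overlapped. Both tools were tested on simulated data. Members, gene lists and tests were chosen with earlier results of these data known. Carriers were named when among the 10 highest per length, when called with the same direction in 3 of 3 mice, when among the 3 smallest p values of each direction between the beta fractions, or as members of a paralog group. Other carriers are named where a group is listed or where they passed the adjusted p. Values of some single genes of the marker and pathway lists are not reported here.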

Additional observations from a re-analysis of the deposited data

Results flagged for a closer look

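Within the 60 sets of 4 beta libraries, 1 library stood apart from the other 3 by Dixon's criterion in 6. Chance flags about 1 in 20 sets of measured values, but where 3 libraries are at 0, as for *Slc25a45*, any count stands apart, and *Slc25a31* was near the floor, so the number is not set against chance. In mouse 4, the NNAT-positive library had 160 CPM of *Slc25a4* against 211 to 220 CPM in the others, 92.5 CPM of *Slc25a39* against 145 to 154 CPM, and 27.4 CPM of *Slc25a42* against 20.8 to 21.9 CPM. The NNAT-negative library of that mouse had 0.492 CPM of *Slc25a31* against 0 to 0.0555 CPM. *Slc25a45* was at 0.197 CPM in the NNAT-positive library of mouse 1 and at 0.139 CPM in the NNAT-negative library of mouse 3, and at 0 in the other libraries of each fraction.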

How the results depend on the processing

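The 12 carriers higher and the 7 lower in beta cells kept their direction in 10 of 10 alternatives. *Slc25a33*, *Slc25a45* and *Slc25a48* had entered the test through the non-beta libraries alone. Nothing is therefore read from their keeping the direction or passing. *Slc25a1*, *Slc25a16*, *Slc25a24*, *Slc25a29*, *Slc25a33*, *Slc25a36* and *Slc25a44* passed the adjusted p in all 10. The others lost it in 1 to 4 settings, most often without 1 mouse or when scaled to mitochondrial genes, a scaling that moved the median log2 fold change of all genes from -0.0981 to -0.291. The carriers called higher were 4, from 3 to 6 without 1 mouse (3 without mouse 1, 6 without mouse 2), 3 with DESeq2, with RLE size factors, when scaled to mitochondrial genes or with the hormone genes left out, and 12 with no minimum fold. Those called lower were 5, and from 3 to 5 without 1 mouse, being 3 without mouse 2 or without mouse 3. Between the beta fractions 0 changed with edgeR and 1 with DESeq2. The cause was not tested.

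Without the replicate block, 5 carriers were called higher, 5 lower and 0 between the beta fractions. In that fit the log2 difference turned for *Slc25a11* -0.07165, *Slc25a31* 0.9207 and *Slc25a27* 0.378 between beta and non-beta cells and for *Slc25a30* -0.04204 between the beta fractions. *Slc25a5*, *Slc25a12* and *Slc25a28* no longer passed the adjusted p.

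The differences that changed sign were not past the threshold in either direction. Between beta and non-beta cells these were *Slc25a11* -0.03093 with DESeq2, *Slc25a11* -0.03085 with RLE size factors, *Slc25a11* -0.01723 with the hormone genes left out, *Slc25a4* -0.06849, *Slc25a11* -0.1452 and *Slc25a37* -0.02157 when scaled to mitochondrial genes. With DESeq2, the signs between the beta fractions turned for *Slc25a1* -0.0309, *Slc25a13* -0.02754, *Slc25a24* -0.007709, *Slc25a30* -0.01188 and *Slc25a45* -0.2586. With RLE size factors, the signs between the beta fractions turned for *Slc25a1* -0.03128, *Slc25a13* -0.02965, *Slc25a24* -0.009064 and *Slc25a30* -0.01277. With the hormone genes left out, the signs between the beta fractions turned for *Slc25a1* -0.03352, *Slc25a13* -0.03184, *Slc25a24* -0.01079 and *Slc25a30* -0.01536. With no filter, the signs between the beta fractions turned for *Slc25a1* -0.02794, *Slc25a13* -0.02628, *Slc25a24* -0.005837 and *Slc25a30* -0.009072. With only beta cell libraries, the signs between the beta fractions turned for *Slc25a1* -0.03423, *Slc25a13* -0.03172 and *Slc25a30* -0.005683. When scaled to mitochondrial genes, the signs between the beta fractions turned for *Slc25a3* 0.02188, *Slc25a11* 0.0442, *Slc25a12* 0.03849, *Slc25a22* 0.04322, *Slc25a36* 0.000979 and *Slc25a39* 0.0334. Leaving out 1 mouse gave *Slc25a1* from -0.01616 to 0.02773, *Slc25a3* from -0.07888 to 0.009912, *Slc25a11* from -0.08941 to 0.06373, *Slc25a12* from -0.07787 to 0.02955, *Slc25a13* from -0.02806 to 0.0453, *Slc25a16* from -0.03402 to 0.1527, *Slc25a17* from -0.04451 to 0.1737, *Slc25a22* from -0.1228 to 0.05649, *Slc25a23* from -0.03353 to 0.1336, *Slc25a24* from -0.1068 to 0.1855, *Slc25a28* from -0.01516 to 0.09501, *Slc25a30* from -0.1906 to 0.344, *Slc25a39* from -0.08562 to 0.01672, *Slc25a40* from -0.04617 to 0.161, *Slc25a45* from -3.661 to 3.893 and *Slc25a51* from -0.03683 to 0.12 between the beta fractions, and *Slc25a31* from -2.133 to 4.959 between beta and non-beta cells.

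With the longest annotated transcript as the length, *Slc25a5* took 49.16% of the ADP/ATP carriers in NNAT-positive (up to 50.19% in 1 library) and 55.98% in non-beta cells, *Slc25a24* 6.319%, 6.098% and 29.57% of the ATP-Mg carriers in the 3 fractions, and *Slc25a33* 35.58% of the pyrimidine nucleotide carriers in non-beta cells. At this depth a carrier under 3 counts, at most 0.102 CPM, was not distinguished from 0.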

Other observations

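Among the carriers that were not tested, *Slc25a18*, a glutamate carrier, had 5, 0, 0 and 3 counts in the NNAT-positive libraries, 0, 14, 16 and 0 counts in the NNAT-negative libraries and 0 counts in all 3 non-beta libraries.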
